A study of Homo sapiens with 16 samples.

Results

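The chemokines that airway epithelium releases were followed through 16 microarrays of the bronchial epithelial line 16HBE. They were taken by name, as every non-control probe whose gene name was CXCL1, CXCL2, CXCL3, CXCL5, CXCL6, CXCL8, CXCL10, CXCL14, CXCL16 or CX3CL1, which gave 16 probes of 10 genes among 58201 probes. Of these, 15 probes of 9 genes were well above background on at least 4 arrays and were tested together with 34599 probes in all. The single CX3CL1 probe was above background on 0 of 16 arrays and was not tested. CXCL8 is the gene also known as interleukin-8.

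16HBE is a non-tumorigenic human bronchial epithelial line immortalised with SV40 large T antigen, so every group below carried that transgene. 16HBE-WT was the parental line with wild-type MET, the receptor tyrosine kinase of hepatocyte growth factor (HGF). 16HBE-ex14 was 1 clone in which Cas9 had been aimed at the splice donor of MET exon 14, so that the exon is skipped. Since it is 1 clone, the edit and the properties of that clone cannot be told apart. Cells of both genotypes were deprived of serum for 2 h, then left untreated or given HGF at 20 ng/mL for 24 h, and RNA of each of the 4 groups was hybridised to 4 one-colour arrays. The methods put a week of culture between the replicates, and which array belongs to which week was not given, so the p-values below measure the spread between these arrays. The genotype of the 16HBE-WT+HGF arrays was taken from their genotype label, since their titles abbreviate it in another way than the untreated ones.

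Chemokines are small proteins that steer leukocytes through G protein-coupled receptors. CXCL1, CXCL2, CXCL3, CXCL5, CXCL6 and CXCL8 carry the Glu-Leu-Arg (ELR) motif before their first cysteines, act on CXCR2 (CXCL6 and CXCL8 also on CXCR1) and attract neutrophils, and in airway epithelium they are classical targets of NF-kappa-B and AP-1 downstream of interleukin-1, tumour necrosis factor and growth factor receptors. CXCL10 is the interferon-inducible ligand of CXCR3 on activated T cells. CXCL14 is made by resting epithelia, and CXCL16 (the ligand of CXCR6) and CX3CL1 (the ligand of CX3CR1) are made as transmembrane proteins that ADAM10 and ADAM17 can release.

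Levels are given throughout as log2 intensity relative to the 75th percentile of the same array, so that 0 stands for that percentile, and probes are compared with themselves only. Probe positions are in hg19 as the files give them. That percentile ran from 139.5 to 213 intensity units on the 8 arrays of the wild-type genotype and from 201.8 to 262.8 on the 8 arrays of 16HBE-ex14, and 49.0% to 60.3% of probes were well above background. MET itself had 4.97 ± 0.17 without HGF and 5.00 ± 0.12 with it in the wild-type genotype, and 5.10 ± 0.15 and 5.16 ± 0.10 in 16HBE-ex14 (SD, n = 4), a probe level that does not check the skipping of the exon. All 6 epithelial markers were above background on all 16 arrays, with a summed intensity of 280963 to 352696 on the wild-type arrays and of 342785 to 407342 on the 16HBE-ex14 arrays. Of them, the basal keratin KRT5 was called lower in 16HBE-ex14 without HGF (-2.57) and with HGF (-4.26), and after HGF in 16HBE-ex14 (-2.32). Of 5 leukocyte markers the array held 3, PTPRC, CD14 and CD3E, which summed to 112 to 207 units on the wild-type arrays and 144 to 280 on the 16HBE-ex14 arrays, with CD3E called lower in 16HBE-ex14 without HGF (-0.98). The 5 fibroblast markers summed to 91.2 to 218 and 75.2 to 119, and the 4 endothelial ones to 49.1 to 94.7 and 58.6 to 127. COL1A2, DCN, PECAM1 and TEK were above background on 0 arrays. All 3 leukocyte markers, 2 of the fibroblast and 2 of the endothelial ones were above background on all 16 arrays. The fibroblast marker LUM was above background on 4 of 4 arrays of each wild-type group and 0 of 4 of each 16HBE-ex14 group. It was at least 3.06-fold lower in 16HBE-ex14 without HGF and at least 2.23-fold lower with it. LUM passed the filter only through the wild-type arrays, so its change is no support for a fall of the list. The part of all these markers in the chemokine values was not tested. In such bulk RNA, fewer cells of a kind and less RNA per cell cannot be told apart.

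The promoters of the ELR chemokines are shown because most share a motif that the choice of the genes did not use. In the RefSeq promoter table (GRCh38, 250 bases before to 50 after each start), which holds 8 of the 10 genes, 5 ELR members share one stretch of 11 bases that holds a kappa-B match, beginning 78 to 91 bases before the start of transcription. It is in capitals in the windows below, each 5′ to 3′ on the gene's own strand, on chr4:73869299-73869339 (plus) for CXCL1, chr4:74099248-74099288 (minus) for CXCL2, chr4:74038743-74038783 (minus) for CXCL3, chr4:73998743-73998783 (minus) for CXCL5 and chr4:73836573-73836613 (plus) for CXCL6.
CXCL1: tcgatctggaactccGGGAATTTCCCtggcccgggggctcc
CXCL2: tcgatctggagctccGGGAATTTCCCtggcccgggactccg
CXCL3: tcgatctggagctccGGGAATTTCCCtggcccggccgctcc
CXCL5: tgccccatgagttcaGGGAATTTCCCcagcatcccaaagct
CXCL6: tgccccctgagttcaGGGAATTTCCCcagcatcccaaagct

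The flanks fall into 2 kinds, one shared by CXCL1, CXCL2 and CXCL3 and the other by CXCL5 and CXCL6. The 11 bases were taken from the matches in these members' own promoters, so their shares over all promoters are a description and no test. They occur in 27 of 35116 promoters (0.0769%) on either strand. A form with at most 2 differences occurs in 7.13% and in 7 of the 8 members, CXCL8 and CXCL10 included. That of CXCL8 is shown in capitals in its window at chr4:73740427-73740502 (plus strand) together with the AP-1 motif TGANTCA upstream of it. Counted from 1 at the first of the 11 shared bases, CXCL8 differs by G1T and C11T. The AP-1 motif, searched on both strands, was present in the 300-base promoters of 2 of 8 members, CXCL8 and CXCL14, and in 7.71% of all promoters. CXCL10 has 2 kappa-B matches and the interferon-response core (GAAA, any 2 bases, then GAA), in capitals in its window at chr4:76023605-76023723 (minus strand); that core is present in 3 of 8 members and 8.11% of all promoters, and the kappa-B consensus in 6 of 8 and 5.91%. A match is a description of these letters and not a bound site.
CXCL8: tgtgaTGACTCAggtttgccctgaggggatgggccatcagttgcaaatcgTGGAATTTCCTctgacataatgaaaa
CXCL10: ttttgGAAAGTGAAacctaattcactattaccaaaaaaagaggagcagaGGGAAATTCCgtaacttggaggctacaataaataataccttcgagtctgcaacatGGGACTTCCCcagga

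The near identity of family members also bears on how far single probes tell them apart. The second probe of CXCL1 and that of CXCL2 read the same stretch of the family, and where they overlap 32 of 37 bases are identical. The 5 bases that differ, in capitals below, are C8T, T14C, T17C, C23G and A29G, counted from 1 at the first base of the CXCL1 probe, with the CXCL1 base first. The deposited annotation of the CXCL2 probe lists transcripts of CXCL2 and of CXCL3, so its value may hold both.
CXCL1 probe A_33_P3330264: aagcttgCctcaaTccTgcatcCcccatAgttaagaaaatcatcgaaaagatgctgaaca
CXCL2 probe A_24_P257416: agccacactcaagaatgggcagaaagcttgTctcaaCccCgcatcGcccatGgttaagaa

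A probe was called where limma's adjusted p (Benjamini-Hochberg over the 34599 probes of that comparison) was below 0.05 and the fold change above 1.5. Between the genotypes without HGF, 1 of 15 chemokine probes was called, a CXCL8 probe that was lower in 16HBE-ex14, against 9.40% of all tested probes. Between the genotypes with HGF, 2 of 15 were called, CXCL3 and CXCL5, both higher in 16HBE-ex14, against 10.8% of all probes. HGF moved 0 of 15 past the limits in 16HBE-ex14, where 2.00% of all probes were called, and 0 of 15 in 16HBE-WT, where the share over all probes was 0%. The difference between the 2 HGF responses was called for 0 of 15 and for 0% of all probes. At an unadjusted p below 0.05, limma gave 3, 6, 4, 1 and 0 of the 15 probes in these 5 comparisons, and 10471, 10973, 4914, 1694 and 1600 of all probes. The chemokines thus lay near the array's share in both genotype comparisons. The median change over the 15 probes was 0.08 without HGF and 0.03 with HGF between genotypes, beside -0.02 and -0.00 over all probes, and for HGF it was 0.00 in 16HBE-WT and 0.08 in 16HBE-ex14, beside 0.04 and 0.05.

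**Figure D1:**
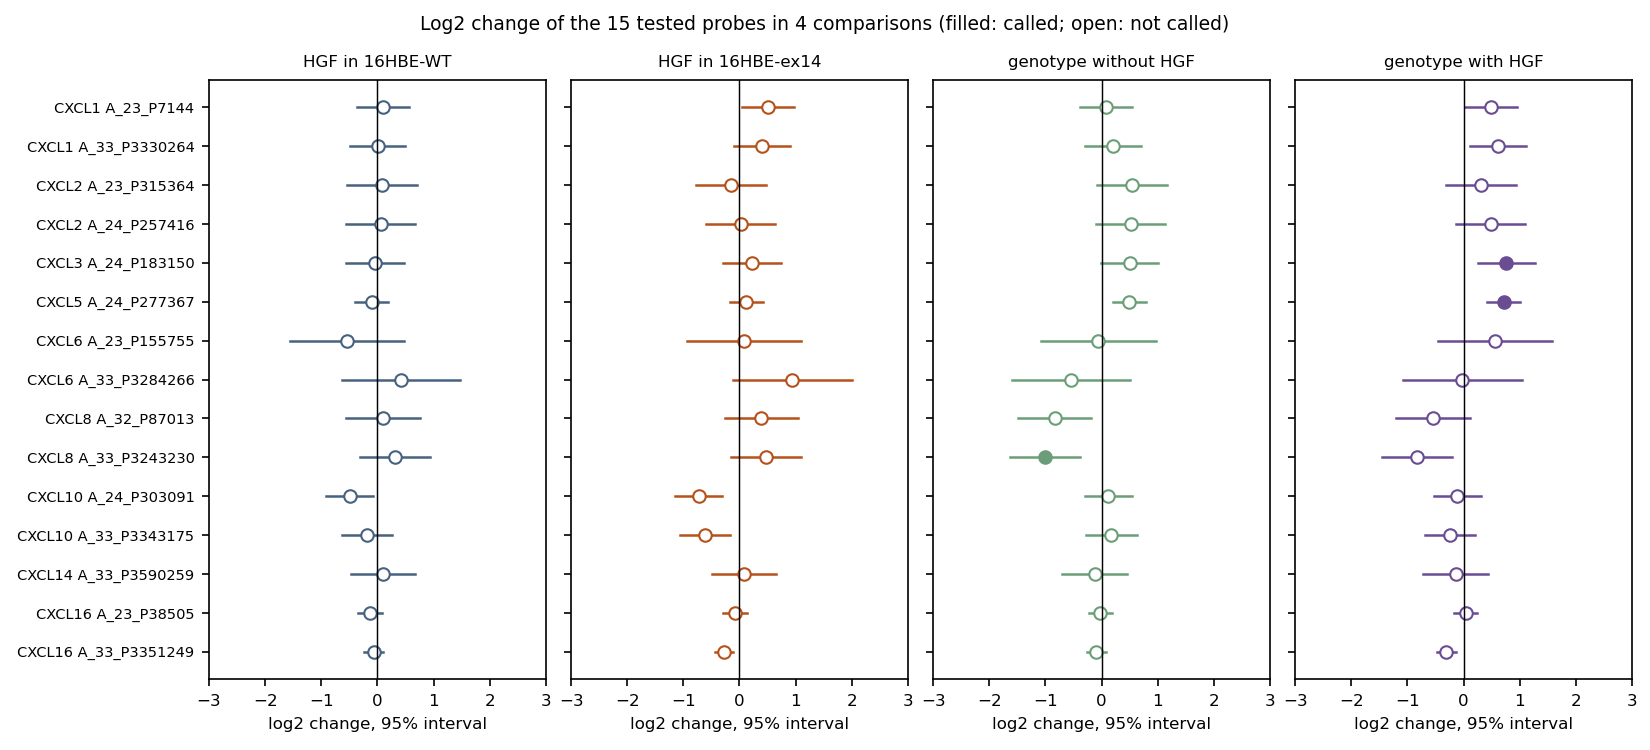
Change of each of the 15 tested chemokine probes in 4 comparisons (x axis, log2 change; points with 95% intervals from limma, filled where called). Filled points are limited to a CXCL8 probe at -1.00 between genotypes without HGF, and to CXCL3 at 0.76 and CXCL5 at 0.71 between genotypes with HGF.

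CXCL8, the prototype of the neutrophil attractants, was the only member called lower in 16HBE-ex14. Probe A_33_P3243230 (hg19, chr4:74607982-74608041, plus strand) had -0.15, 0.28, -0.49 and 0.45 on the 16HBE-WT arrays and -0.35, -1.36, -1.07 and -1.14 on the 16HBE-ex14 arrays. With HGF it had 0.19, 0.23, 0.79 and 0.10 in 16HBE-WT and -1.04, -0.90, -0.22 and 0.14 in 16HBE-ex14. Without HGF 3 of 4 16HBE-ex14 arrays lay below every 16HBE-WT array and 1 fell within their range. The change was -1.00 (SE 0.292, 95% interval -1.63 to -0.38), or 2.00-fold lower, with limma's adjusted p = 0.0270. With HGF the change was -0.83, with adjusted p = 0.0578. That change was called in 8 of 34 other settings, among them a slide block and normexp background correction (limma adjusted p = 0.0153). With slide and row as a replicate block it was not called.

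The other CXCL8 probe, A_32_P87013 (chr4:74609265-74609324), gave 1.54, 1.95, 1.84 and 1.69 in 16HBE-WT against 1.44, 1.45, 0.31 and 0.49 in 16HBE-ex14. These groups did not overlap, as was the case for 21.4% of all probes, although the nearest arrays were close, at 1.54 and 1.45. After HGF it gave 1.81, 1.48, 2.05 and 2.08 in 16HBE-WT and 1.99, 0.57, 1.09 and 1.59 in 16HBE-ex14, and here the groups overlapped. limma gave -0.83 (SE 0.305) with adjusted p = 0.0739 without HGF and -0.54 with adjusted p = 0.248 with HGF. On the first slide its change without HGF was -0.30 and on the second -1.36, while the called probe had -0.92 and -1.09. Both probes thus had negative changes on both slides, and only 1 of them passed the limits in the comparisons as set out above. A_32_P87013 was called without HGF in 6 of 34 other settings, among them normexp background correction (limma adjusted p = 0.0317) and slide 2 alone. The call of A_33_P3243230 was lost when replicate 2 or 4 of 16HBE-WT was left out (adjusted p 0.0726 and 0.0777), or replicate 2, 3 or 4 of 16HBE-ex14 (0.0782, 0.0630 and 0.0682). Whichever of the 16 arrays was left out, the change lay between -1.21 and -0.86. The call was also lost with arrays scaled to their median (-0.86, adjusted p = 0.0567) and with no scaling (-0.63, 0.0663).

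The effect of HGF on CXCL8 was not called in either genotype. For A_33_P3243230 it was 0.31 in 16HBE-WT and 0.48 in 16HBE-ex14 (adjusted p = 0.513, limma), and for A_32_P87013 it was 0.10 and 0.39. In 16HBE-ex14 the slides differed in sign, with -0.11 on the first and 1.06 on the second for A_33_P3243230, and -0.16 and 0.94 for A_32_P87013. Group means of A_32_P87013 were 1.76 ± 0.18 without and 1.85 ± 0.28 with HGF in 16HBE-WT, against 0.92 ± 0.61 and 1.31 ± 0.61 in 16HBE-ex14 (SD, n = 4). Ordered by mean level over both slides, both probes ran from 16HBE-WT+HGF through 16HBE-WT and 16HBE-ex14+HGF to 16HBE-ex14. Of the steps between neighbours in that order, those for HGF within a genotype were tested, and neither passed the limits.

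**Figure D2:**
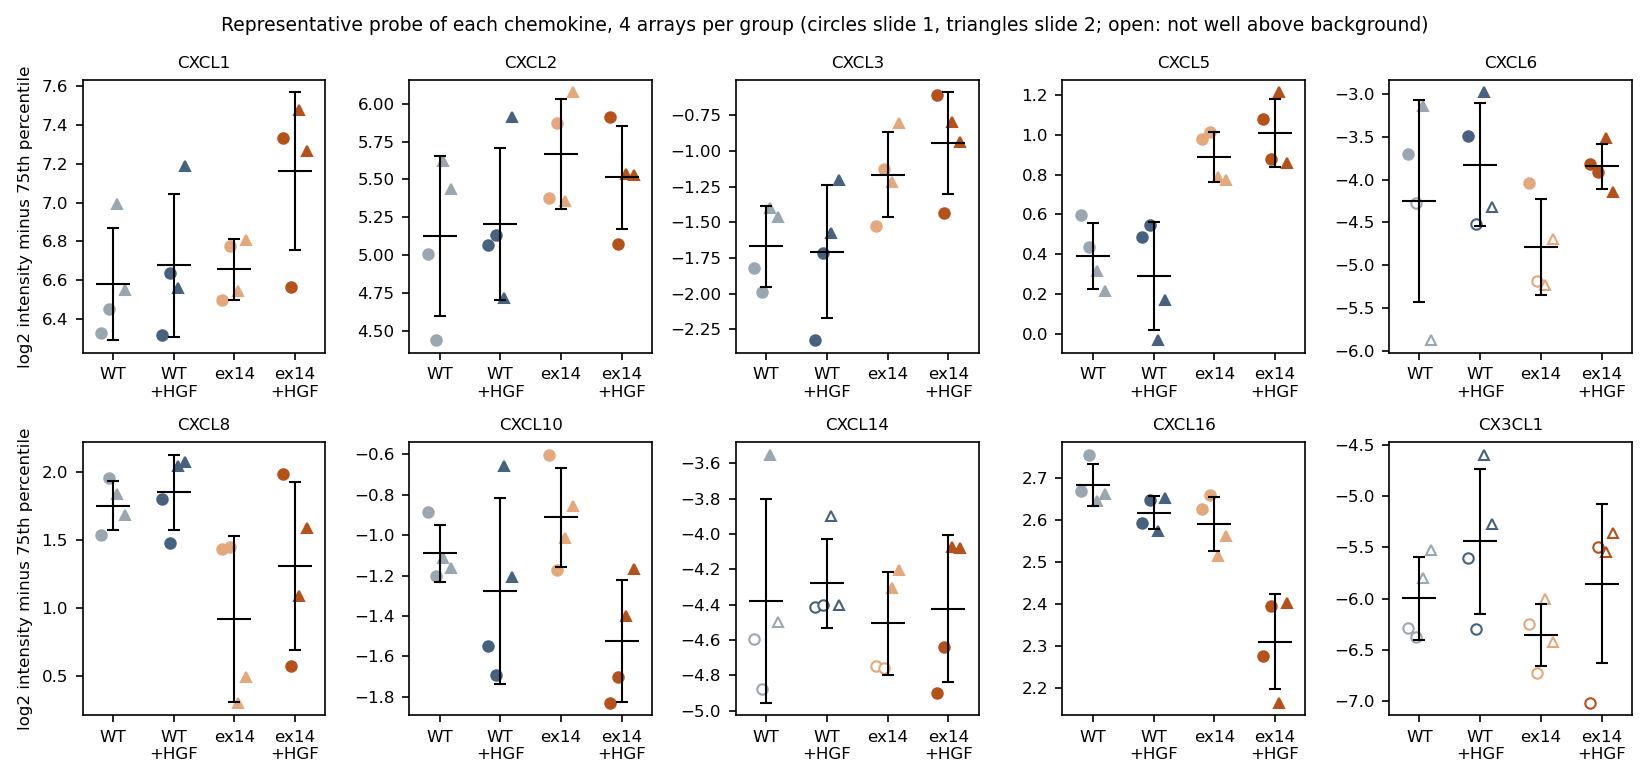
Level of 1 probe per gene on each array (y axis, log2 intensity relative to the 75th percentile; x axis, the 4 groups; circles slide 1, triangles slide 2, open symbols not well above background, black marks mean ± SD of 4 arrays). CXCL5 on all 8 arrays of 16HBE-ex14 lies above all 8 of the wild-type genotype, and CXCL16 is lowest in 16HBE-ex14+HGF.

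CXCL5, a neutrophil attractant of epithelial origin, was called higher in 16HBE-ex14 with HGF. Its probe A_24_P277367 (chr4:74861898-74861957, minus strand) gave 0.60, 0.44, 0.32 and 0.21 in 16HBE-WT and 0.49, 0.55, -0.03 and 0.17 in 16HBE-WT+HGF. In 16HBE-ex14 it gave 0.98, 1.02, 0.79 and 0.77, and in 16HBE-ex14+HGF 1.08, 0.88, 1.21 and 0.86. Every 16HBE-ex14 array lay above every wild-type array, so the groups did not overlap with HGF, as for 23.9% of all probes, or without it, as for 21.4%. With HGF the change was 0.71 (SE 0.138, 95% interval 0.42 to 1.01), 1.64-fold higher, with limma's adjusted p = 0.00194. Without HGF it was 0.50 (95% interval 0.20 to 0.79), with adjusted p = 0.0207 and a fold of 1.41, under the fold limit. The call with HGF held when any of the 16 arrays was left out (0.61 to 0.80), and within slides the change was 0.47 and 0.96, the former not called when slide 1 was fitted alone (adjusted p = 0.0909). HGF itself gave -0.10 in 16HBE-WT and 0.12 in 16HBE-ex14, and the difference between these responses, 0.22, had adjusted p = 1.00.

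CXCL3, a close relative of CXCL1 and CXCL2, lay below the 75th percentile on all arrays. Probe A_24_P183150 (chr4:74902702-74902761, minus strand) had -2.33, -1.72, -1.58 and -1.20 in 16HBE-WT+HGF and -0.61, -1.44, -0.79 and -0.93 in 16HBE-ex14+HGF. Without HGF it had -1.82, -1.99, -1.40 and -1.46 in 16HBE-WT and -1.52, -1.12, -1.21 and -0.80 in 16HBE-ex14. In both pairs 1 array of the 16HBE-ex14 genotype fell within the wild-type range and the other 3 lay above it. The change with HGF was 0.76 (SE 0.240, 95% interval 0.25 to 1.28), 1.70-fold higher, with limma's adjusted p = 0.0356, and without HGF it was 0.50 with adjusted p = 0.176. The call was lost without replicate 1, 2 or 3 of 16HBE-WT+HGF (adjusted p 0.105, 0.0695 and 0.0531) and without replicate 1, 3 or 4 of 16HBE-ex14+HGF (0.0990, 0.0865 and 0.0701), at changes of 0.56 to 0.93 over the 16 arrays left out.

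CXCL1 and CXCL2 are the neutrophil attractants first named for growth-regulating activity, and none of their 4 probes was called in the comparisons as set out above, while both CXCL1 probes were called in some of the other settings tried. CXCL1 probe A_23_P7144 (chr4:74736850-74736909, plus strand) had 6.50, 6.77, 6.54 and 6.81 in 16HBE-ex14 and 7.33, 6.57, 7.48 and 7.27 in 16HBE-ex14+HGF. In 16HBE-WT it had 6.33, 6.45, 6.99 and 6.55, and in 16HBE-WT+HGF 6.32, 6.64, 6.56 and 7.19. Of the 16HBE-ex14+HGF arrays, 3 lay above every array of the other groups, and replicate 2 lay among them. HGF in 16HBE-ex14 gave 0.50 (SE 0.215, 95% interval 0.04 to 0.96; limma adjusted p = 0.294), and in 16HBE-WT 0.10. Between genotypes with HGF this probe gave 0.48 (adjusted p = 0.137), which was called in 3 of 34 other settings. The second CXCL1 probe gave 0.61 between genotypes with HGF (95% interval 0.12 to 1.11; adjusted p = 0.0787), which was called in 7 of 34 other settings, among them a slide block (0.0487) and normexp background correction (0.0171), and 0.40 for HGF in 16HBE-ex14 (adjusted p = 0.474).

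CXCL2 overlapped among all groups. Its probe A_23_P315364 (chr4:74962985-74963044, minus strand) had 5.01, 4.44, 5.62 and 5.44 in 16HBE-WT, and 5.37, 5.87, 5.35 and 6.07 in 16HBE-ex14. With HGF it had 5.07, 5.13, 4.71 and 5.91 in 16HBE-WT and 5.91, 5.07, 5.54 and 5.53 in 16HBE-ex14. The group ranges ran into one another in every comparison. Between the genotypes the change was 0.54 without HGF (SE 0.292; limma adjusted p = 0.234) and 0.31 with HGF (0.531), and the second probe gave 0.52 and 0.48. HGF gave -0.16 in 16HBE-ex14 and 0.08 in 16HBE-WT.

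CXCL6, the CXCR1 and CXCR2 ligand next to CXCL8 on the chromosome, was near the limit of detection. Its probe A_23_P155755 (chr4:74703368-74703427) was well above background on 4 of 16 arrays and A_33_P3284266 (chr4:74714496-74714555), which is annotated to another transcript and lies 11.1 kb further on, on 9 of 16. Whether the latter reads CXCL6 mRNA was not tested. Probe A_33_P3284266 was above background on 1 array of 16HBE-ex14 and on all 4 of 16HBE-ex14+HGF, where it had -3.82, -3.91, -3.52 and -4.14. In 16HBE-ex14 the values were -4.03, -5.19, -5.24 and -4.69. No CXCL6 change was called (limma adjusted p = 0.422 for HGF in 16HBE-ex14). No size is given, since 3 of the 4 untreated 16HBE-ex14 values are below background.

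The 6 ELR genes lie, with the platelet chemokines PF4 and PPBP, within 356420 bases (hg19, chr4:74607982-74964401), which held 16 probes of 12 gene names, 14 of them tested. CXCL8 at one end had negative changes in 16HBE-ex14 by both probes, and CXCL5, CXCL3 and CXCL2 at the other end had positive ones between 0.31 and 0.76. Between them CXCL1 had 0.08 to 0.61, and the CXCL6 probes, mostly or partly below background, were not called. The other tested probes at the far end, none of them called, differed among themselves, PPBPP2 having -0.10 and 0.00, ENST00000514414 -0.11 in both comparisons, and lnc-MTHFD2L-1 0.76 and 0.79. Called changes were CXCL8 alone without HGF, and CXCL5 with CXCL3, neighbours on the minus strand, with HGF. PF4 had -0.55 and 0.10, and PPBP was not tested.

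CXCL10, the interferon-inducible chemokine, had group means after HGF below the untreated ones in both genotypes, without passing the limits. Its probe A_24_P303091 (chr4:76942934-76942993, minus strand) had -0.68, -1.31, -0.87 and -0.92 in 16HBE-ex14 and -2.05, -1.83, -1.54 and -1.26 in 16HBE-ex14+HGF. In 16HBE-WT it had -1.14, -1.16, -1.04 and -0.92, and in 16HBE-WT+HGF -1.95, -1.75, -1.14 and -1.40. In each genotype 1 treated array lay above the lowest untreated one and the other 3 lay below all of them. limma gave -0.73 for HGF in 16HBE-ex14 (SE 0.195, 95% interval -1.14 to -0.31; adjusted p = 0.0648) and -0.49 in 16HBE-WT (95% interval -0.91 to -0.08; unadjusted p = 0.0237, adjusted p = 0.958). The change in 16HBE-ex14 was called with the slide as a block (adjusted p = 0.0139) and with slide and row as a replicate block (0.0334).

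The second CXCL10 probe, A_33_P3343175, is shown with its 60 bases since it is the second reading of the gene.
CXCL10 probe A_33_P3343175: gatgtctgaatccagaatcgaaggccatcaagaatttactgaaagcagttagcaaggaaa
It had -0.60, -1.17, -1.02 and -0.86 in 16HBE-ex14 and -1.83, -1.70, -1.40 and -1.17 in 16HBE-ex14+HGF, and the change was -0.61 (95% interval -1.06 to -0.17; limma adjusted p = 0.161). In 16HBE-WT it had -0.88, -1.20, -1.11 and -1.16 without HGF and -1.55, -1.69, -0.66 and -1.21 with it, so that 1 treated array lay above all untreated ones. The change there was -0.19, with -0.58 on the first slide and 0.20 on the second. The genotype comparisons of both probes ran from -0.25 to 0.18. The difference between the HGF responses of this probe was -0.42, with adjusted p = 1.00, so an HGF effect particular to 16HBE-ex14 was not shown.

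CXCL16, the transmembrane ligand of CXCR6, gave a small difference that was tight among arrays. Its probe A_33_P3351249 (hg19, chr17:4637807-4637866, minus strand) had 2.67, 2.76, 2.65 and 2.66 in 16HBE-WT and 2.59, 2.65, 2.57 and 2.65 after HGF. Untreated 16HBE-ex14 had 2.63, 2.66, 2.52 and 2.56. In 16HBE-ex14+HGF it had 2.28, 2.40, 2.17 and 2.40, below all other arrays. The groups did not overlap for HGF in 16HBE-ex14, as for 8.84% of all probes, nor between the genotypes with HGF, as for 23.9%. For HGF in 16HBE-WT no member was without overlap, against 2.62% of all probes. The change between genotypes with HGF was -0.31 (SE 0.0767; limma adjusted p = 0.0104), a 1.24-fold difference under the fold limit, and that for HGF in 16HBE-ex14 was -0.28 (adjusted p = 0.0688). The other CXCL16 probe, A_23_P38505, annotated to another transcript variant, gave 0.03 and -0.08 in these comparisons, with all groups overlapping. The sign of the -0.31 depended on the scaling, being 0.08 (adjusted p = 0.702) with no scaling between arrays, where the median over all probes itself was 0.38.

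CXCL14 and CX3CL1 were at the floor of the measurement. CXCL14 (chr5:134907494-134907553, minus strand) was above background on 1 of 4 arrays without and 0 of 4 with HGF in 16HBE-WT, and on 2 and 4 of 4 in 16HBE-ex14. None of its changes was called, and no size is given, since most wild-type values are below background. CX3CL1 (chr16:57418025-57418084, plus strand) ranged from -7.01 to -4.60, below the background limit on every array, which gives no order between groups.

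The genes around the chemokines were read from lists by role, each gene by 1 probe. Of 9 receptors for these ligands, 4 were tested and 1 was above background on all arrays, CXCR3. Among the others, CXCR4, CX3CR1 and ACKR1 were above background on no array. ACKR3, an atypical receptor that removes CXCL12, was above background on 4 of 4 arrays of each wild-type group and 1 of 4 of each 16HBE-ex14 group. It was the 1 receptor called, lower in both genotype comparisons (9.40% and 10.8% of all probes called), but passed the filter only through the wild-type arrays, and no size is given. Of the 3 proteases that process chemokines, 1 was called in each genotype comparison, beside those same shares of all probes. ADAM10 and ADAM17 had no call. ADAM17 was lower in 16HBE-ex14 under the fold limit, by -0.50 without HGF (limma adjusted p = 0.00454) and -0.51 with HGF (0.00355). DPP4, which trims CXCL10, was lower in 16HBE-ex14 without HGF (-0.81, adjusted p = 0.0410) and with HGF (-1.08, adjusted p = 0.00800).

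Among 14 other chemokines, 9 of them tested, 2 were called higher and 0 lower in 16HBE-ex14 without HGF (9.40% of all probes called), and 1 higher and 0 lower with HGF (10.8%). CCL2, the monocyte attractant, had group means of -2.10 without and -2.94 with HGF in 16HBE-WT, and of 1.85 and 0.36 in 16HBE-ex14. Its genotype changes were 3.94 without HGF (limma adjusted p = 1.16e-07) and 3.30 with HGF (5.98e-07), both wider than any tested change of the chemokines above, and HGF lowered it in 16HBE-ex14 by a change of -1.48 (0.00416). CXCL9, another CXCR3 ligand, was above background on 0 of 4 16HBE-WT arrays and 4 of 4 16HBE-ex14 arrays, at least 1.18-fold higher. It was above background on 5 arrays in all and so passed the filter only through the group where it was high, and its call is no support for a rise of the list. PF4 rose with HGF in 16HBE-ex14 (0.97, adjusted p = 0.00511). The medians of these 9 genes were -0.03 and -0.05 between genotypes without and with HGF and -0.27 for HGF in 16HBE-ex14, beside -0.02, -0.00 and 0.05 over all probes.

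The list built around cytokines that induce these chemokines had the most calls of the lists. It also held other genes, among them the antagonist IL1RN, the growth factor CSF3 and the bacterial sensor TLR2. Of 14 tested, 3 rose and 4 fell in 16HBE-ex14 without HGF, and 3 rose and 5 fell with HGF, where 9.40% and 10.8% of all probes were called. These counts are a description, since the list was chosen with earlier results of these data known. The median change was 0.24 and 0.03, beside -0.02 and -0.00 over all probes. Among the interleukins of this list, IL1A fell by a change of -1.97 without HGF (limma adjusted p = 0.000160) and -1.79 with HGF, and IL1B by -2.17 (7.29e-05) and -1.98. Their antagonist IL1RN is among the genes counted as fallen, but it was above background on 4 of 4 arrays of each wild-type group and 1 of 4 of each 16HBE-ex14 group, and passed the filter only through the wild-type arrays, so its call is no support for a fall of the list. IL17C, an epithelial cytokine, rose by 1.18 without HGF (0.00722) and 1.43 with HGF (0.00179), and LIF by 0.67 and 0.93. TNF was called higher without HGF (0.88, 0.0247). CSF3, the granulocyte growth factor, was lower in 16HBE-ex14 (-2.45 without and -1.29 with HGF) and rose with HGF in 16HBE-ex14 by 2.12 (0.00691), but only 2 of 4 untreated 16HBE-ex14 arrays had it above background. TLR2, which senses bacterial lipoproteins, was lower in 16HBE-ex14 with HGF (-1.50, 0.00244). TNFRSF1A, the main TNF receptor, was higher in 16HBE-ex14 with HGF (0.59, 0.000144). Without HGF it was higher by 0.58 (limma adjusted p = 0.000203), under the fold limit. HGF itself gave TNFRSF1A a change of -0.02 in 16HBE-WT and -0.01 in 16HBE-ex14.

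The signalling lists had fewer calls. Of 18 NF-kappa-B subunits, kinases and feedback genes, 0 rose and 1 fell in 16HBE-ex14 without HGF, and 0 rose and 4 fell with HGF, beside 9.40% and 10.8% of all probes. TNFAIP3, a feedback inhibitor, was lower in both (-0.68, limma adjusted p = 0.0148, and -0.69, 0.0124). NFKBIE, an inhibitor of the I-kappa-B family, was lower with HGF (-0.82, 7.97e-06). Without HGF it was lower by a change of -0.44 (limma adjusted p = 0.00152), under the fold limit. REL (-0.67) and BCL3 (-0.74) were also lower between genotypes with HGF. HGF in 16HBE-ex14 lowered NFKBIA, the main I-kappa-B, by a change of -0.65 (0.00565), and BCL3 by -0.76 (0.0233). The median over the 18 was -0.04 without HGF and -0.16 with it, beside -0.02 and -0.00 over all probes.

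Of 11 AP-1, C/EBP and EGR factors, 2 were called without HGF and 3 with HGF between genotypes and 2 for HGF in 16HBE-ex14, beside 9.40%, 10.8% and 2.00% of all probes. FOSL1 was higher in 16HBE-ex14 without HGF (0.60, limma adjusted p = 0.0454), with HGF (1.10, 0.00107) and after HGF in 16HBE-ex14 (0.94, 0.0168), and JUND was lower in all 3 (-0.63, -1.02 and -0.63). FOSL2 was lower with HGF (-0.82). Of 7 regulators of mRNA stability, listed mainly as binders of AU-rich mRNAs, ZC3H12A was lower in both genotype comparisons (-0.91, adjusted p = 0.00911, and -0.99, 0.00448) and the other 6 had no call, beside the same shares of all probes. ZC3H12A is an RNase that recognises stem-loops of inflammatory mRNAs and not AU-rich stretches. Of 11 interferon pathway genes, 1 was called without HGF, 0 with HGF and 1 for HGF in 16HBE-ex14, again beside 9.40%, 10.8% and 2.00%. IFIT2 was higher in 16HBE-ex14 without HGF (0.65, 0.00118) and, under the fold limit, with it (0.39, limma adjusted p = 0.0249). IRF1, an activator of CXCL10, fell after HGF in 16HBE-ex14 (-0.64, 0.0380). For HGF in 16HBE-WT and for the difference of the responses, 0 genes of any list were called by limma.

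**Figure D3:**
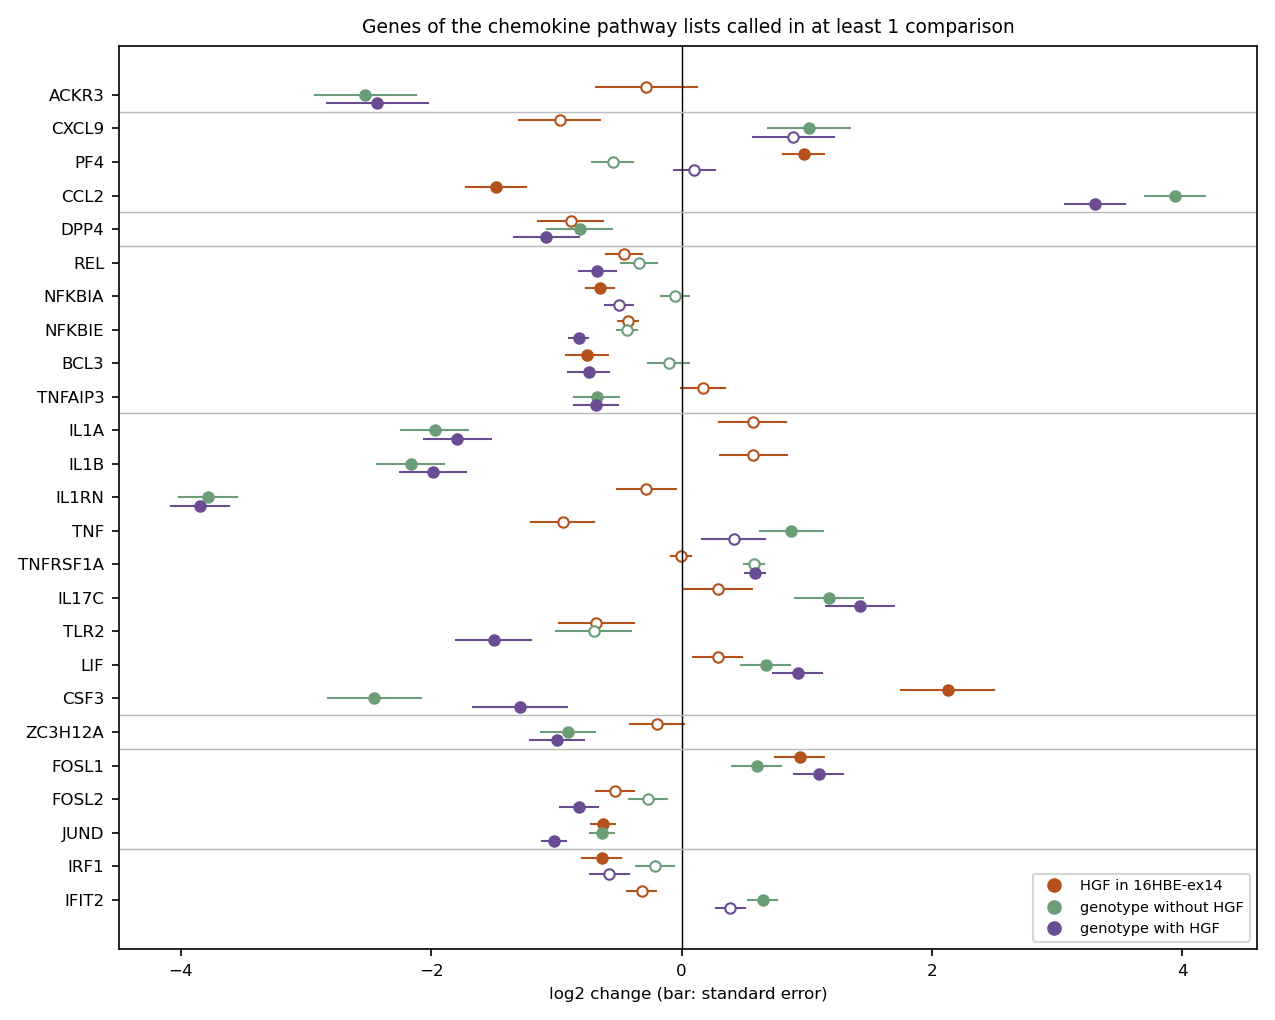
Genes of the surrounding lists with at least 1 call (rows) and their log2 change with its standard error (x axis) for HGF in 16HBE-ex14 and for 16HBE-ex14 against 16HBE-WT without and with HGF, filled where called. CCL2 lies at 3.94 and 3.30 between the genotypes, and IL1A at -1.97 and -1.79; the IL1RN, ACKR3, CXCL9, TLR2 and CSF3 points rest in part on values below background.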

How the data were processed

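RNA of 16 cultures was hybridised to one-colour Agilent arrays, and the authors deposited 1 scanner file per array, read with Agilent Feature Extraction 10.7.3.1. The deposited processed signal is an intensity on a linear scale, background-corrected within the array. A series table held the same values (1007616 of 1007616 equal at a relative difference of at most 1e-06), and between-array normalization was not given in the sources used here.

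From it, log2 of the processed signal minus that array's 75th percentile over all non-control spots was taken, spots of one probe were averaged, and a probe was kept if 4 of 16 arrays had it well above background. limma 3.58.1 (R 4.3.3) fitted 1 mean per group, 5 contrasts and Benjamini-Hochberg adjustment within each contrast; the script was tested on simulated data. The members and lists were chosen with earlier results of these data known. Every member probe is accounted for, and in the lists the genes named are mostly those called. ADAM10, ADAM17 and the receptors above background on no array or on all arrays were named after their values were seen. PPBP and the markers PTPRC, CD14, COL1A2, DCN, PECAM1 and TEK are also named without a call. Where a gene has more than 1 probe, the one of highest mean level stands for it in lists and plots. Figures used matplotlib 3.10.9, sequences pandas 2.3.3. Alternatives were scaling, background, filters, slide and replicate blocks, variance models, arrays left out and thresholds. The number of arrays limits the precision.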

Additional observations from a re-analysis of the deposited data

Results flagged for a closer look

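1 value stood apart from its group. The CXCL14 probe had -3.90 on replicate 3 of 16HBE-WT+HGF, while the other 3 arrays of that group were between -4.41 and -4.40, so its gap took nearly the whole range of the group. None of the 4 arrays was well above background for this probe. By chance about 1 in 20 groups would show such a gap, and 60 groups of 4 arrays were examined here.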

How the results depend on the processing

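Over 34 other settings, no chemokine call changed sign. Between the genotypes without HGF (1 probe called) the count was 2 with normexp background, with no scaling, with probes above background on all 16 arrays and with no fold limit, and 0 with no filter, on slide 1 only and when adjusted over 5 contrasts; it ran from 0 to 2 with 1 array left out. With no scaling the probes were CXCL3 and CXCL5, and with array medians the 1 probe was CXCL5, neither including CXCL8. For HGF in 16HBE-ex14 (0 called) it was 1, each time the CXCL10 probe A_24_P303091, with array medians, both stricter filters, a slide block, a replicate block, trended variances and adjustment over 5 contrasts, and 0 to 1 with 1 array left out. Between the genotypes with HGF (2 called) it was 4 with no scaling, the all-array filter and a slide block (each with CXCL1 A_33_P3330264 among them). It was 3 with normexp background, the filter on all 4 arrays of a group, trended variances, array weights and no fold limit. On slide 2, over 5 contrasts and with only the groups compared it was 1, on slide 1 it was 0, and with 1 array left out 1 to 4. CXCL8 A_33_P3243230, lower in 16HBE-ex14, was among the probes called with HGF in 8 of the 34 settings, the slide block included. The changes of the 3 probes called in the comparisons as set out above kept their direction under each setting. They ran from -1.21 to -0.63 for CXCL8 A_33_P3243230 without HGF, and with HGF from 0.36 to 1.15 for CXCL3 and 0.47 to 1.10 for CXCL5. CXCL5 with HGF lost its call on slide 1 alone (0.47, adjusted p = 0.0909), and CXCL8 A_33_P3243230 lost it in 11 settings and CXCL3 in 12. In HGF in 16HBE-WT and the difference of responses the count was 0 throughout.

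Replicate numbers follow slide and row. Of 24 same-numbered pairs of arrays, 20 had correlated deviations over 0.1 (median 0.20, lowest 0.03), and the own number was best in 10. Since 4 pairs were at or under 0.1 and the labels name no shared week, the numbers were not taken as a pairing; a shared week was not tested. With the replicate block the count was 1 (CXCL8 A_33_P3243230) between genotypes without HGF, 2 (CXCL3 and CXCL5) with HGF, 1 (CXCL10) for HGF in 16HBE-ex14, and 0 in the other comparisons.

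Scaling moved the median change of all probes: with array medians it was -0.11 for HGF in 16HBE-ex14 (0.05 before) and 0.12 between genotypes without HGF (-0.02 before), and with no scaling 0.35 without and 0.38 with HGF between genotypes (-0.02 and -0.00 before). The share of all probes called ran from 0% to 2.88% for HGF in 16HBE-ex14, and from 2.43% to 20.5% and 4.51% to 23.7% between genotypes. CXCL6, CXCL14 and CX3CL1 are limited by signal over background.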

Other observations

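Other genes with profiles like those of the 2 chemokines whose group means spread furthest were listed by the root mean square difference over the 16 arrays, after each probe was centred, among 26359 other gene names. Closest to CXCL8 (probe A_32_P87013) were AQP11 (0.302) and PFKFB4 (0.306), followed by lnc-PNMA2-1, ZNF404 and ENST00000442706 (0.309), where the median over all genes was 0.627. ENST00000442706 had group means of -5.00 to -4.11, around the lowest values well above background (median -4.40 over arrays), so its profile rests in part on values near the floor. The other of the 2 was CXCL6 by probe A_33_P3284266, whose spread of group means rests on values below background in 3 of 4 16HBE-ex14 arrays, and no profiles are given for it. These are descriptions of likeness over arrays that share groups and slides, with no test.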
